A study of Mus musculus with 18 samples.

Results

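A set of 7 genes that mark glia and the neural crest was followed through the differentiation of mouse ES cells into motor neurons. The genes are Sox10, Foxd3, Erbb3, Fabp7, Slc1a3, Mbp and S100b, taken by name, and each probe set annotated with one of them as its only gene symbol was used. This gave 23 probe sets for the 7 genes, out of 45037 probe sets and 18193 named genes on the array. Sox10 had 3 probe sets, Foxd3 1, Erbb3 2, Fabp7 1, Slc1a3 6, Mbp 8 and S100b 2.

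RNA came from HBG3, a single ES cell line, and from whole unsorted aggregates (embryoid bodies) grown from it, and was hybridized to 18 Affymetrix arrays. The stages were day 0 (ES cells, 3 arrays), day 2 (embryoid bodies before any patterning factor, 4 arrays), day 2 with 8 h of retinoic acid (RA, 2 arrays), day 3 (neural precursor stage, 3 arrays), day 4 (progenitor motor neuron stage, 3 arrays) and day 7 (postmitotic motor neuron stage, 3 arrays). RA and an agonist of hedgehog signalling were added on day 2, so the day 3, day 4 and day 7 cultures had been given both, whereas the 8 h cultures are labelled with RA only, and whether they held the agonist too is not stated. No culture without RA beyond day 2 was analysed here, so the passage of time and the exposure to the factors cannot be told apart. The replicates are biological by the study's account, and all were of the one line.

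Glia are the non-neuronal cells of the nervous system. In the spinal cord, radial glia are the progenitors that line the ventricle, and the domain that gives rise to motor neurons later gives rise to oligodendrocyte precursors, which go on to make myelin. The neural crest leaves the dorsal edge of the neural tube and forms Schwann cells, sensory and autonomic neurons and melanocytes. Several of the genes followed here are used in both lineages, so none of them marks a single cell type on its own.

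The values are log2 signals, in which 1 unit is a 2-fold difference, and a signal under 4 was treated as background. On each array 55.2% to 56.9% of probe sets lay under it, and the lowest value on the arrays was 2.24. The stage labels were checked on marker genes: the mean signal of 6 ES cell genes lay between 11.5 and 12.1 on the day 0 arrays and all 6 were lower at day 7 than at day 0, and 9 of 9 pan-neuronal genes were higher at day 7 than at day 4. Of 7 motor neuron genes, 4 were higher at day 7 than at day 4 (Mnx1, Isl1, Isl2 and Slc18a3), but Chat, the enzyme that makes acetylcholine, was under background on all 3 day 7 arrays (2.31, 2.88 and 2.24). No gene on the lists for microglia and blood (5 genes), endothelium (4) and muscle (5) reached background at day 7. Of 8 fibroblast genes 1 or 2 did on each day 7 array (Col1a1, 4.27 to 5.23, and Dcn, 3.39 to 5.51), and Dcn was called higher at day 7 than at day 4 through a dimmer probe set (at least 9.02-fold), with -0.60 on its brightest. In whole aggregates, a lower signal from fewer cells of a type and one from less RNA per cell cannot be told apart.

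**Figure D1:**
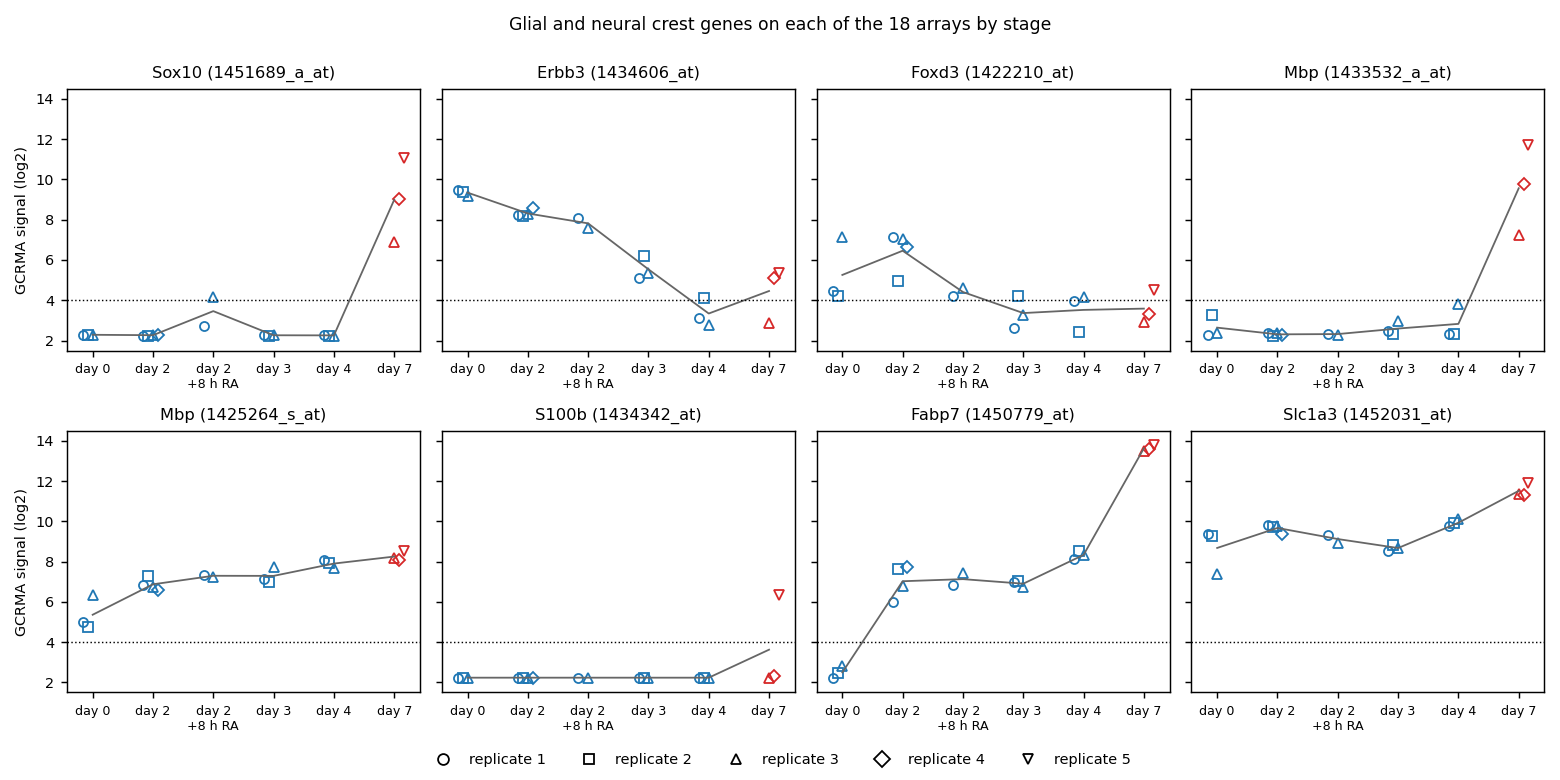
GCRMA signal (log2, vertical axis) of 1 probe set per gene, and of a second one for Mbp, on each of the 18 arrays, by stage (horizontal axis). Symbols stand for the replicate numbers, day 7 arrays are red, the line joins the stage means and the dotted line is the background level of 4. Fabp7 was at 13.5 to 13.8 on the day 7 arrays, whereas Sox10 and Mbp (1433532_a_at) were spread over 4 units or more there.

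Sox10 is the transcription factor of the migrating crest, of Schwann cells and of the oligodendrocyte lineage. Its brightest probe set (1451689_a_at) read 2.29, 2.29 and 2.26 at day 0, and 2.24, 2.24, 2.29 and 2.29 at day 2. With 8 h of RA it read 2.74 and 4.18, then 2.25, 2.24 and 2.29 at day 3 and 2.29, 2.24 and 2.24 at day 4. At day 7 it read 6.88, 9.04 and 11.05 in replicates 3, 4 and 5. Sox10 was therefore at the lowest values of the arrays up to day 4, with 1 array of the 8 h cultures just over background, and was above background on every array of day 7.

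The 3 day 7 values all lay above the 15 others, but they covered a 4.17-unit range among themselves. The log2 fold change at day 7 against day 4 was 6.73 ± 0.72 (standard error, limma adjusted p = 1.6e-05), at least 31.8-fold with the day 4 mean set to background. A second probe set, 1424985_a_at, read 2.95, 5.72 and 8.13 in the day 7 replicates 3, 4 and 5, against values near 2.4 at day 4, and did not pass the test (3.20 ± 0.85, limma adjusted p = 0.016). The third, 1425369_a_at, read 2.24, 2.24 and 3.23 at day 7 and was under background on all arrays. When only the day 7 and day 4 arrays were fitted, Sox10 missed the threshold (adjusted p = 0.033), since its spread was then estimated from those arrays alone.

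Foxd3 is a transcription factor of pluripotent cells and, later, of the premigratory crest. Its one probe set (1422210_at) read 4.44, 4.20 and 7.14 at day 0, 7.16, 4.97, 7.04 and 6.66 at day 2, and 4.19 and 4.63 with 8 h of RA. It read 2.64, 4.19 and 3.26 at day 3, 3.95, 2.43 and 4.18 at day 4, and 2.92, 3.31 and 4.52 at day 7. Foxd3 was highest at day 2 (6.46 ± 1.01, SD, n = 4) and was at or near background from day 3 on, when 1 of 3 arrays at each stage was at 4 or above. Within day 0, replicate 3 (7.14) lay well above the others.

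No array of day 3 overlapped with day 2, and the log2 fold change of day 3 against day 2 was -3.10 ± 0.78, which did not pass the threshold over all probe sets (limma adjusted p = 0.026). It did when dim probe sets were left out before the fit (adjusted p = 0.0072). With 8 h of RA, Foxd3 was at 4.41 ± 0.31 (SD, n = 2) against 6.46 ± 1.01 at day 2 without RA (n = 4), a log2 fold change of -2.05 ± 0.88 with a limma adjusted p of 1. Day 7 (3.58 ± 0.83), day 4 (3.52 ± 0.95) and day 3 (3.36 ± 0.78) did not differ beyond the SD of their 3 arrays.

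Erbb3 is a receptor for neuregulins, needed by Schwann cell precursors and also present in epithelial cells. Its probe set 1434606_at read 9.47, 9.36 and 9.20 at day 0, 8.21, 8.17, 8.30 and 8.57 at day 2, and 8.07 and 7.56 with 8 h of RA. It read 5.09, 6.18 and 5.34 at day 3, 3.12, 4.14 and 2.77 at day 4, and 2.89, 5.12 and 5.36 at day 7. Of the 7 genes, Erbb3 was the only one whose stage means were lower at each stage in turn from day 0 to day 4. Its other probe set, 1452482_at, stayed under background on all arrays.

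Erbb3 fell at day 3 against day 2 (log2 fold change -2.78 ± 0.51, limma adjusted p = 0.0039), and no day 3 array overlapped with day 2. The call was narrow. It was lost when replicate 1, 3 or 4 of day 2 or replicate 1 or 3 of day 3 was left out, with adjusted p between 0.0105 and 0.0245 in those fits. With the replicate number as a block in the day 2 and day 3 arrays alone, the value was -2.69 and the adjusted p 0.109. At day 4 Erbb3 averaged 3.34 ± 0.71, against 5.54 ± 0.57 at day 3 (SD, n = 3 each), and this difference did not pass (-2.19, limma adjusted p = 0.088).

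At day 7 Erbb3 was well under its day 0 level (log2 fold change -4.89 ± 0.55, limma adjusted p = 1.2e-05). Against day 4, day 7 replicates 4 and 5 were above all 3 day 4 arrays and replicate 3 lay among them. The day 7 mean was 4.46 ± 1.37, against 3.34 ± 0.71 at day 4 (log2 fold change 1.12, limma adjusted p = 0.22). Without day 7 replicate 3 it was 1.90 with an adjusted p of 0.0037.

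Fabp7 is the brain fatty acid binding protein of radial glia, known also from Schwann cell precursors. It read 2.24, 2.45 and 2.80 at day 0 and 5.97, 7.61, 6.80 and 7.71 at day 2 (probe set 1450779_at). With 8 h of RA it read 6.83 and 7.43, then 6.96, 7.03 and 6.72 at day 3 and 8.15, 8.52 and 8.34 at day 4. At day 7 it read 13.52, 13.58 and 13.78. The 3 day 7 arrays of Fabp7 lay above all others and within a range of 0.265.

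Fabp7 rose at day 2 against day 0, before RA was added, by a log2 fold change of 4.53 ± 0.34 (limma adjusted p = 4.7e-06), at least 8.14-fold with the day 0 mean set to background. When only those 2 groups were fitted, the change missed the threshold (adjusted p = 0.024). Day 3, day 2 and the 8 h RA arrays overlapped. Day 4 (8.33 ± 0.19) lay above day 3 (6.90 ± 0.16, SD, n = 3 each) on every array, but the difference did not pass over all probe sets (log2 fold change 1.43, limma adjusted p = 0.095). The second step came at day 7, with 5.29 ± 0.36 against day 4 (limma adjusted p = 2.6e-07). Against day 0, day 7 was at least 791-fold higher (limma adjusted p = 1.1e-10).

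Slc1a3 is the glutamate transporter GLAST of radial glia and astrocytes. Its brightest probe set (1452031_at) read 9.38, 9.26 and 7.39 at day 0, 9.81, 9.74, 9.77 and 9.36 at day 2, and 9.30 and 8.94 with 8 h of RA. It read 8.54, 8.83 and 8.66 at day 3, 9.77, 9.93 and 10.10 at day 4, and 11.35, 11.29 and 11.90 at day 7. Unlike Sox10 and Fabp7, Slc1a3 was far above background in ES cells, and only the day 7 arrays stood above all the others.

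Day 7 exceeded day 4 on this probe set by 1.58 ± 0.40, just short of the threshold (limma adjusted p = 0.0127). It passed with dim probe sets left out (adjusted p = 0.0048) and after quantile normalization (0.0082). Slc1a3 was called at day 7 through 2 dimmer probe sets. The first, 1443749_x_at, read 7.71, 8.05 and 8.57 at day 7 and averaged 5.90 at day 4, a log2 fold change of 2.21 ± 0.31 (limma adjusted p = 1.5e-04). The second, 1426340_at, read 5.79, 6.32 and 6.79 at day 7 and averaged 3.48 at day 4, which gave 2.82 ± 0.38 (limma adjusted p = 1.3e-04).

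Against day 0, day 7 was higher by 2.84 ± 0.40 on the brightest Slc1a3 probe set (limma adjusted p = 9.4e-05). The probe sets 1440491_at and 1439072_at did not show this pattern, with log2 fold changes at day 7 against day 4 of -0.96 and -0.64 (limma adjusted p = 0.72 and 0.58). In order of level, day 3 (8.67 ± 0.15), day 0 (8.68 ± 1.12) and the 8 h RA arrays (9.12 ± 0.26) lay within the spread of day 0, and day 2 (9.67 ± 0.21) overlapped with day 4 (9.93 ± 0.17).

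The sequence before the annotated start is shown for Fabp7 and Slc1a3, the pair of radial glial genes that were called at day 7, and for S100b, which was seen on 1 day 7 array alone. Entries were matched by symbol for 4 of the 7 genes in the RefSeq promoter table (mouse build GRCm38.p6), and 250 bases are given 5′ to 3′ on the gene's strand. They come from chr10:57784673-57784922 (plus strand) for Fabp7, chr15:8710808-8711057 (minus strand) for Slc1a3 and chr10:76253586-76253835 (plus strand) for S100b. Capitals mark matches, on either strand, to the letters searched. These were ACAAT for the core of SOX factor sites, TGGGAA for the Notch effector RBPJ, CANNTG for E-boxes of basic helix-loop-helix factors, ATGCAAAT for POU factors and TATAAA for the TATA box.
Fabp7: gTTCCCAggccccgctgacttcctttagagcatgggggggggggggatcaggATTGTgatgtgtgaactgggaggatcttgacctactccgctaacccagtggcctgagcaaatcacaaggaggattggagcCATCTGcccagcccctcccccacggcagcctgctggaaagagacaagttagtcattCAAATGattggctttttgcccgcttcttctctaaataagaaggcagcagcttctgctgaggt
Slc1a3: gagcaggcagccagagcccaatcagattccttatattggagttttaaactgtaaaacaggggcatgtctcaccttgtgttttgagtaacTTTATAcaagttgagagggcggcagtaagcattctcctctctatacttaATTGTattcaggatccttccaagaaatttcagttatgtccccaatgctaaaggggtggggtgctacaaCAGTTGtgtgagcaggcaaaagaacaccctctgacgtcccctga
S100b: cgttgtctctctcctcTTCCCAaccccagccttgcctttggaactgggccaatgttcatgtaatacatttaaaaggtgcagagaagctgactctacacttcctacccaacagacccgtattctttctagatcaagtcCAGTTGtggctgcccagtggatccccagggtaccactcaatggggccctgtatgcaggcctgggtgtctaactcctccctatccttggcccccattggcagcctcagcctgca

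The Fabp7 sequence held 1 match to the SOX core, 1 to the RBPJ motif and 2 to the E-box. Slc1a3 held 1 SOX core, 1 E-box and 1 TATA box, which lay on the opposite strand. S100b held 1 RBPJ motif and 1 E-box. The octamer was found in none of the 3 sequences.

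Such short words are common. Among 32851 promoters of the same length, 27.7% held the SOX core, 21.6% the RBPJ motif, 66.2% the E-box, 1.6% the octamer and 12.4% the TATA box on either strand. The matches describe these letters and were not tested as binding sites.

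Mbp encodes myelin basic protein of oligodendrocytes and Schwann cells, and its locus also yields the golli transcripts, which are made outside myelinating cells too. Its probe sets fell into distinct patterns. The one that was brightest over all arrays, 1425264_s_at, was above background from ES cells on. It read 5.02, 4.74 and 6.32 at day 0, 6.84, 7.31, 6.76 and 6.58 at day 2, and 7.35 and 7.24 with 8 h of RA.

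At the later stages the same Mbp probe set read 7.15, 6.97 and 7.75 at day 3, 8.10, 7.93 and 7.67 at day 4 and 8.17, 8.08 and 8.51 at day 7. The largest step between neighbouring stages was from day 0 to day 2, before RA, and those arrays did not overlap. That step was a log2 fold change of 1.51 and missed the threshold (limma adjusted p = 0.015). Later changes were smaller, and neighbouring stages from day 2 on overlapped. Day 7 averaged 8.25 ± 0.22, against 7.90 ± 0.22 at day 4 (SD, n = 3 each), and was not called. Day 7 exceeded day 0 by 2.89 (limma adjusted p = 2.2e-05).

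The Mbp probe set that was brightest at day 7, 1433532_a_at, stayed under background on all 15 earlier arrays and read 7.23, 9.76 and 11.69 in day 7 replicates 3, 4 and 5. At day 4 it read 2.31, 2.35 and 3.82. Its log2 fold change was 6.73 ± 0.81 at day 7 against day 4 (limma adjusted p = 4.6e-05), at least 47.2-fold with the day 4 mean set to background. A further 4 probe sets, 1436201_x_at, 1456228_x_at, 1454651_x_at and 1419646_a_at, were also called at day 7 against day 4, with log2 fold changes of 6.66, 6.41, 5.77 and 4.76.

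Each of these 4 Mbp probe sets had its lowest day 7 value in replicate 3 and its highest in replicate 5, as 1433532_a_at did. The probe sets of 1 gene read the same RNA and do not count as separate evidence. Of the remaining Mbp probe sets, 1451961_a_at was above background on day 7 replicate 5 alone (5.15) and 1425263_a_at on no array. Which transcripts each probe set reads was not analysed here.

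S100b is a calcium-binding protein of astrocytes, Schwann cells and the oligodendrocyte lineage. Both of its probe sets sat at the lowest value of the arrays up to day 4. At day 7 the probe set 1434342_at read 2.24, 2.30 and 6.35 in replicates 3, 4 and 5, and 1419383_at read 2.24, 2.24 and 5.58. S100b was therefore above background on 1 array of 18. The mean difference of day 7 against day 4 was 1.39 on 1434342_at (limma adjusted p = 0.29), and it was 0.03 without replicate 5.

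**Figure D2:**
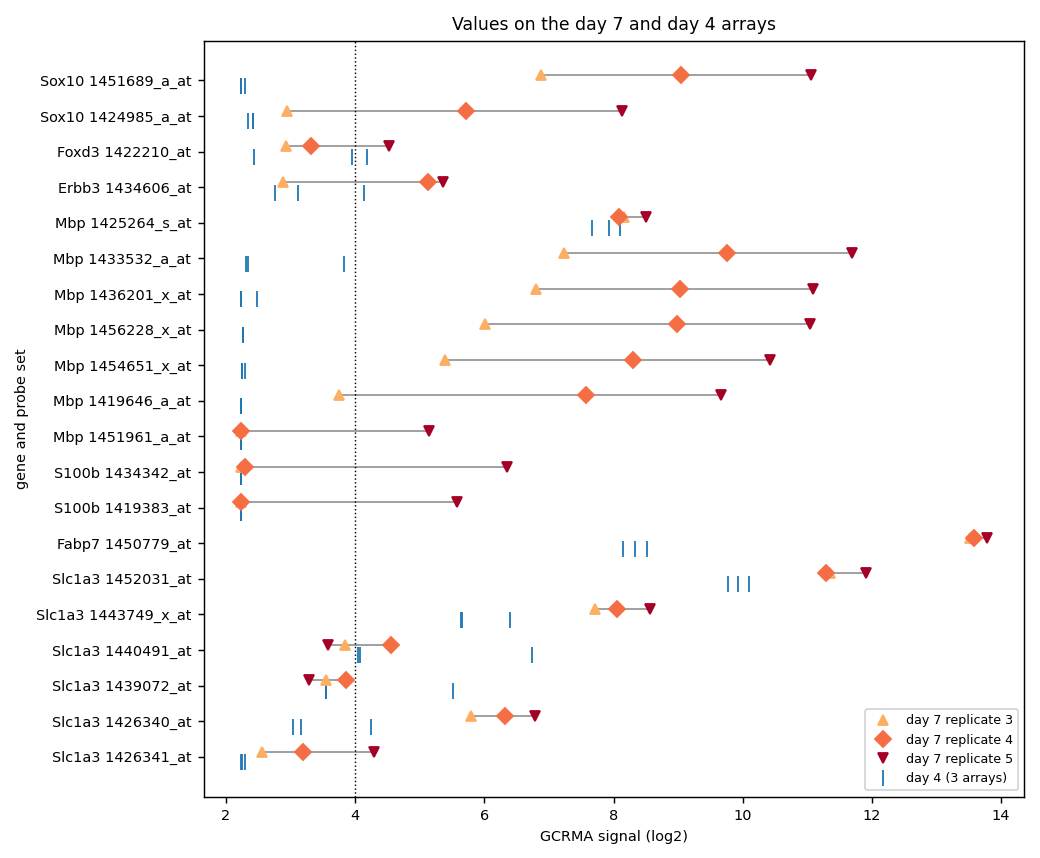
GCRMA signal (log2, horizontal axis) on the day 7 arrays (triangle, diamond and inverted triangle for replicates 3, 4 and 5) and on the 3 day 4 arrays (blue ticks) for the 20 probe sets of the 7 genes with a value of at least 4 on a day 7 or day 4 array (vertical axis). The dotted line is the background level. Replicates 3, 4 and 5 lay in this order for both Sox10 probe sets shown and for 5 of the Mbp probe sets, whereas the Fabp7 values nearly coincided.

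Counted by gene, 4 of the 7 were called higher at day 7 than at day 4 (Sox10, Mbp, Fabp7 and Slc1a3) and none lower, where a call needed a limma adjusted p under 0.01 and at least a 2-fold change in 1 or more probe sets. Over all 18193 genes, 10.9% were called higher and 19% in either direction. A gene with more probe sets has more chances of a call, and the 7 had 23, against 34945 for the 18193 genes. The median log2 fold change of the 7 genes was 1.39, against 0 over all genes. With probe sets of shared or variant sequence left out, the count was 2 (Fabp7 and Slc1a3). That filter removes every probe set of Sox10 and Mbp, so those genes could not be called under it. With only the day 7 and day 4 arrays fitted, the count was 1 (Fabp7).

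Against day 0, 4 genes were higher at day 7 (the same ones) and 1 was lower (Erbb3), beside 17% of all genes called higher, 16.4% lower and 33.1% in either direction. The comparisons with day 4 and day 0 share the day 7 arrays. The fit pools the spread over all 18 arrays, so for genes near the lowest values before day 7 the standard errors and p-values can be too small. An exact permutation test of 3 arrays against 3 cannot give a two-sided p under 0.1.

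**Figure D3:**
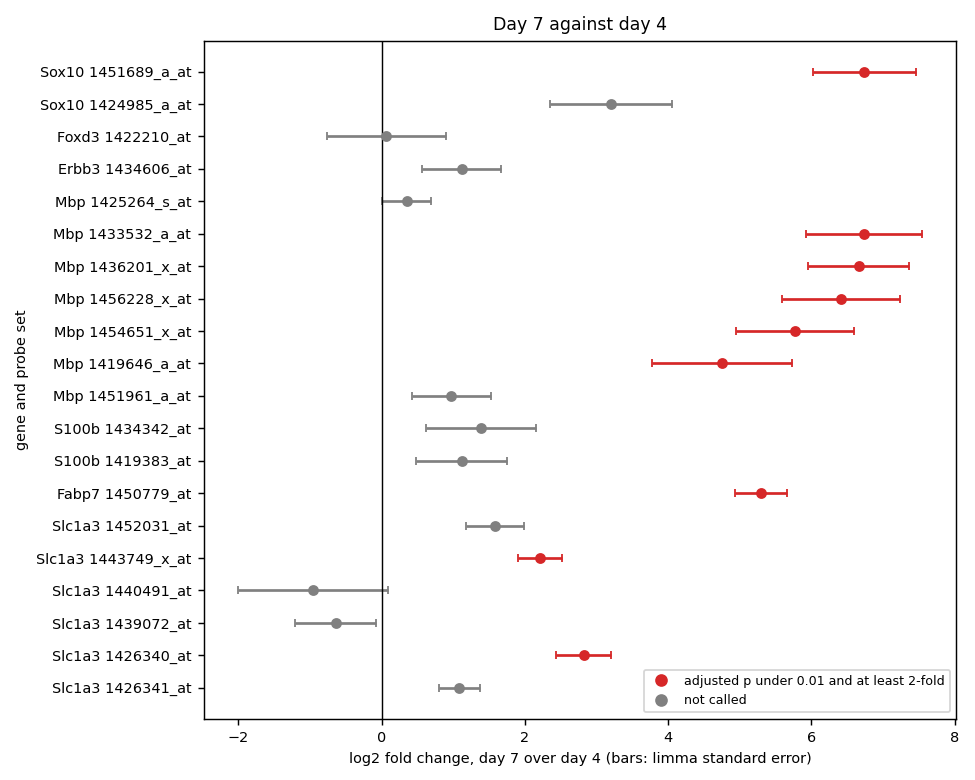
Log2 fold change of day 7 over day 4 (horizontal axis) with limma's standard error (bars) for 20 probe sets of the 7 genes (vertical axis). Red points passed an adjusted p of 0.01 with at least a 2-fold change, grey points did not, and 9 probe sets of 4 genes passed.

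The earlier steps touched fewer of these genes. At day 2 against day 0, 1 of the 7 was called (Fabp7, higher), beside 4.47% of all genes (2.02% higher and 2.46% lower). At day 3 against day 2, 1 was called (Erbb3, lower), beside 7.71% of all genes (3.91% higher and 3.8% lower). At day 4 against day 3, limma called 0, beside 1.42% of all genes (0.627% higher and 0.792% lower), and 3 genes had an unadjusted p under 0.05 (Erbb3, Fabp7 and Slc1a3).

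With 8 h of RA against day 2, limma called 0 of the 7, beside 0.434% of all genes (0.363% higher and 0.0715% lower). At an unadjusted p under 0.05 there were 2, Foxd3 and Mbp, the second through a probe set under background on all arrays. Sox10 read 2.74 and 4.18 with RA against 2.24 to 2.29 without, and Fabp7 averaged 7.13 ± 0.42 (SD, n = 2) against 7.03 ± 0.81 (n = 4).

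The spread among the day 7 arrays was uneven across the genes. Over the 20143 probe sets with a day 7 mean of at least 4, the median SD of the 3 day 7 arrays was 0.31. Sox10 had an SD of 2.09, which 0.248% of those probe sets exceeded. Mbp had an SD of 2.24 on 1433532_a_at (0.189% were larger) and of 0.22 on 1425264_s_at (65.3% were larger).

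Fabp7 had an SD of 0.14, and 83% had a larger one. Slc1a3 had 0.34 (45.4% larger) and Erbb3 1.37 (1.08% larger). Sox10, Mbp (1433532_a_at), S100b and Erbb3 were each lowest in replicate 3 and highest in replicate 5. So were Foxd3 (2.92, 3.31 and 4.52), Fabp7 within its narrow range, and the 2 dimmer Slc1a3 probe sets that were called. The brightest probe sets of Slc1a3 (11.35, 11.29 and 11.90) and Mbp (8.17, 8.08 and 8.51) were lowest in replicate 4. The Slc1a3 probe sets 1440491_at and 1439072_at were lowest in replicate 5. The order was thus seen with a narrow spread too, but not on every probe set. The arrays as a whole were alike, with Pearson correlations over all probe sets of 0.995 (replicates 3 and 4), 0.985 (3 and 5) and 0.981 (4 and 5), which describe these arrays only.

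The same order of replicates was common but not general at day 7. Of 305 genes with a day 7 mean of at least 4 and a range of at least 2 among the 3 arrays, a set defined after the values were seen, 94 (30.8%) were lowest in replicate 3 and highest in replicate 5. Another 92 were lowest in replicate 4 and highest in replicate 5, and 60 were highest in replicate 3 and lowest in replicate 5. Among all genes ranked by replicate 5 minus replicate 3, Sox10 was at rank 16 (4.17) and S100b at rank 18 (4.11), with Gpr17 at rank 4, Olig1 at 14 and Sox8 at 17.

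The mean of an oligodendrocyte lineage list had the same order of day 7 arrays as Sox10 and Mbp. Over 15 measured genes of a list of 16, the mean signal was 4.94, 5.72 and 7.10 in day 7 replicates 3, 4 and 5, against 4.49, 4.68 and 4.57 at day 4. The number of list genes at background or above was 7, 9 and 10 at day 7 and 5, 6 and 6 at day 4. Olig1, a transcription factor of this lineage, read 7.52, 9.52 and 12.11, Gpr17, a receptor of its committed precursors, 5.14, 7.30 and 11.19, and Pdgfra, the growth factor receptor of its precursors, 5.31, 7.28 and 9.02. Nkx2-2, on the same list, was alike on the 3 arrays (10.63, 10.68 and 10.65). The order of the mean was not particular to this list. It was 7.68, 8.18 and 9.49 over 5 genes listed for the progenitor motor neuron stage, which include Olig2 and Nkx2-2 too. Of those 5, Neurog2, Olig2 and Nkx6-2 had this order, whereas Nkx6-1 had the reverse (9.37, 8.91 and 7.36). Over 7 genes of postmitotic motor neurons the mean was 5.69, 6.36 and 6.68.

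Of the oligodendrocyte list, 3 of 15 genes (20%) were higher at day 7 than at day 4 and 2 were lower, beside 10.9% and 8.17% of all genes. Those higher were Gpr17 (at least 14.7-fold, limma adjusted p = 0.0011), Nkx2-2 (log2 fold change 4.03, a ventral progenitor factor too) and Cnp, a myelin enzyme (2.89). Those lower were Olig2 (-2.06), which also marks the motor neuron progenitors of day 4, and Mobp, which averaged 2.24 at day 7 against 4.03 at day 4, near background. The late myelin genes Mag, Mog and Opalin and the precursor proteoglycan Cspg4 were under background on all 3 day 7 arrays. Others on the list were not. Cldn11 read 3.73, 5.30 and 8.08 in day 7 replicates 3, 4 and 5, and Ugt8a 5.99, 6.20 and 9.34. Myrf (2.49, 3.64 and 5.84) and Enpp6 (3.69, 4.07 and 5.85) were also highest in replicate 5. None of these was called at day 7 against day 4. The part of these genes in the Sox10, Mbp and S100b values was not tested.

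The radial glia and astrocyte list was higher at day 7, as Fabp7 and Slc1a3 were, and even over the 3 arrays. Its 18 genes had mean signals of 8.11, 8.19 and 8.43 in day 7 replicates 3, 4 and 5, against 6.58, 6.26 and 5.90 at day 4. At day 7 against day 4, 9 of 18 were called higher, 2 lower and 7 not at all, beside 10.9% of all genes called higher and 8.17% lower, and the median log2 fold change was 1.32, against 0 over all genes. Those higher included Ttyh1, with a log2 fold change of 5.23 ± 0.48 on its brightest probe set, and the receptor phosphatase Ptprz1, with 4.21 ± 0.42. Hopx and Sparcl1 were under background at day 4, and were at least 44.9-fold and at least 37.1-fold higher at day 7.

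The Notch target Hes5, which keeps progenitors from differentiating, was lower at day 7 than at day 4 (-2.44 ± 0.37), as was the gap junction gene Gja1 (-3.11 ± 0.20 on its brightest probe set). Gfap, the filament of mature astrocytes, was at the lowest value on all day 7 arrays. Aldh1l1 and Aqp4, on the same list, were among those called higher at day 7 than at day 4. Aldh1l1 read 9.49, 9.77 and 9.37 at day 7, against 5.50, 3.39 and 4.45 at day 4. Aqp4 read 5.72, 4.79 and 4.00 at day 7, against 4.11, 2.32 and 2.32 at day 4. At day 3 against day 2, when neither Fabp7 nor Slc1a3 was called, Hes5 (at least 46.3-fold), Ptprz1 (log2 fold change 4.55) and Sox9 (3.19) were higher, and Hopx was at least 4.02-fold lower. Ttyh1 was called lower there through a dimmer probe set alone, and differed by -0.04 ± 0.45 on its brightest one.

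**Figure D4:**
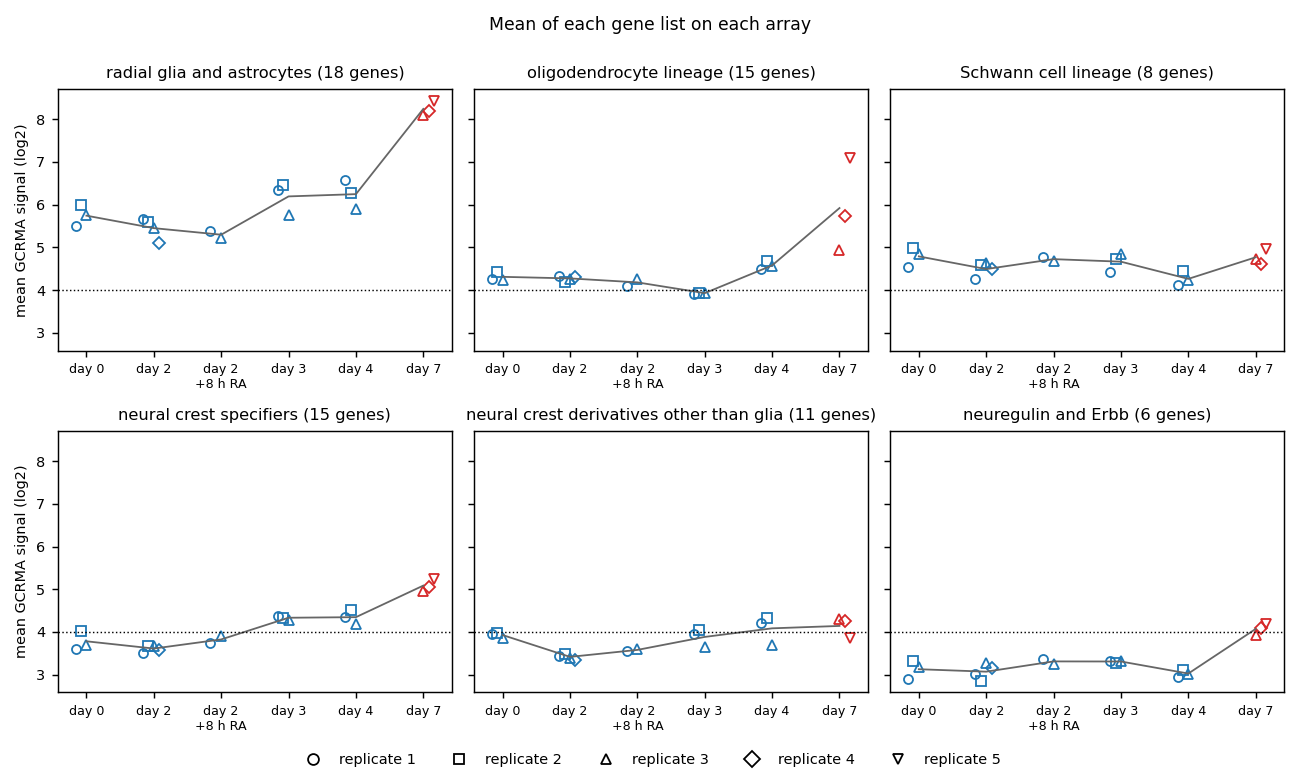
Mean GCRMA signal (log2, vertical axis) of 6 gene lists on each of the 18 arrays, by stage (horizontal axis). Symbols stand for the replicate numbers, day 7 arrays are red, the line joins the stage means and the dotted line is the background level of 4. The oligodendrocyte list spread from 4.94 to 7.10 over the day 7 arrays, and the radial glia and astrocyte list from 8.11 to 8.43.

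Of 15 neural crest specifiers, 4 (26.7%) were higher at day 7 than at day 4 and none lower, beside 10.9% and 8.17% of all genes. They were Sox8 (at least 17.7-fold), the neurotrophin receptor Ngfr (log2 fold change 3.21 ± 0.39), the endothelin receptor Ednrb (2.82 ± 0.58, on a dimmer probe set) and Ets1 (2.38 ± 0.38). On its brightest probe set Ednrb changed less than 2-fold. There it read 12.70, 12.73 and 13.08 at day 7, against 11.90, 12.03 and 11.87 at day 4. Sox8 is used in the oligodendrocyte lineage too, and read 6.30, 7.71 and 10.43 in the day 7 replicates. On each day 7 array 6 of the 15 were at background or above. They were the 4 called, Sox9 (9.75, 10.48 and 10.31) and Twist1 (5.27, 5.07 and 4.50). The rest, among them Pax7, Msx1, Msx2, Tfap2a and Snai1, were under background on all day 7 arrays.

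Of the 11 measured genes of other crest derivatives, limma called 0 at day 7 against day 4, beside 19% of all genes in either direction. An unadjusted p under 0.05 was found for 1 of them. Of 8 measured Schwann cell genes 2 were higher, Pou3f1 (2.52) and Ngfr, and none lower, beside 10.9% and 8.17% of all genes. The defining genes Cdh19, Egr2, Mal and Dhh were under background at day 7. The Schwann list mean was 4.72, 4.62 and 4.97 at day 7, against 4.12, 4.44 and 4.23 at day 4.

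Ednrb was called in the early steps too. It read 5.61 and 6.50 with 8 h of RA against 3.30 to 3.54 at day 2 (log2 fold change 2.65 ± 0.20, limma adjusted p = 2.4e-05), at least 4.15-fold with the day 2 mean set to background. It was the single gene of the 6 lists of glial, crest and neuregulin genes to be called after 8 h of RA. Over all genes, 0.434% were called there. At day 3 it was at 11.8 to 12.3.

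Nrg1, which encodes the neuregulin 1 ligand of Erbb3 and Erbb4, read 7.57, 7.79 and 8.09 at day 7, against 2.76, 3.21 and 2.84 at day 4 (log2 fold change 4.88 ± 0.30, at least 14.1-fold). Nrg3, a ligand of Erbb4, was at least 2.07-fold higher. Erbb3 averaged 4.46 at day 7 and 3.34 at day 4. Erbb2, the partner of Erbb3, averaged 5.70 at day 3 against 3.77 at day 2 and was called higher there (1.93 ± 0.39, limma adjusted p = 0.0070), and Erbb4 was under background on all day 7 arrays. Of the 6 genes of this list, Nrg1 and Nrg3 alone were called at day 7 against day 4, beside 19% of all genes.

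As a description, the genes whose values followed each member most closely over the 18 arrays were listed by Pearson correlation among 11929 genes. They were Sox8 (0.990), Sertm1 (0.988) and Slc7a14 (0.986) for Sox10, and Mrgpre (0.991), Slc7a14 (0.988) and Kcnc1 (0.984) for Mbp on 1433532_a_at, a probe set taken after its values were seen. For Fabp7 they were Gpm6a (0.972), 6330403K07Rik (0.972) and Spast (0.969), and for Slc1a3 Tmc7 (0.922), Rnf122 (0.921) and Tspan5 (0.903).

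Erbb3 was followed by Slc45a4 (0.962), Rpp25 (0.956) and Myadm (0.954), and Foxd3 by Angptl4 (0.843), Kctd12b (0.835) and Slc5a5 (0.834). Mbp on 1425264_s_at was followed by Ssbp3 (0.942), Grip1 (0.926) and Rbmx (0.923). The 18 points share their stages, and Sox8 was under background on all arrays before day 7, as Sox10 was on all but 1.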

How the data were processed

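RNA from HBG3 ES cells and embryoid bodies was amplified and hybridized to Affymetrix mouse arrays by the authors. Signals on the log2 scale, 1 per probe set, were deposited by the authors, who made them with GCRMA across all 18 arrays, and the versions of GCRMA and limma they used are not given in the sources used here. The values were used as deposited, raw scans were not used, and 64 control probe sets were left out. Of the 45037 probe sets tested, 34945 carry 1 symbol, 932 several and 9160 none in the platform annotation.

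Group means of the 6 stages were fitted to all 18 arrays in limma 3.58.1 (R 4.3.3; lmFit and eBayes, 12 residual and 0.515 prior degrees of freedom), with Benjamini-Hochberg adjustment over all tested probe sets. The study's thresholds, an adjusted p under 0.01 and at least 2-fold, had to be met by 1 or more probe sets for a gene to be called. Where a single value stands for a gene, it is that of the probe set brightest on average over all arrays, unless a dimmer one is named. Against a group with no array at a log2 signal of 4 or more, the fold is a bound with that mean set to 4. The fit was tested on simulated data, in which each probe set had the same spread at every stage. That test does not cover genes at the lowest values before day 7 and widely spread at day 7. Python 3.11.15 and matplotlib 3.10.9 drew the figures.

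The 7 genes and the 15 marker lists were chosen with earlier results of these data known. Named genes are the 7 at every stage, up to 4 called genes per list and comparison with the largest change on a called probe set, genes given as background on the lists, and the 3 genes most correlated with each of the 7 whose brightest probe set differed by at least 2 between stage means, which left out S100b. Other genes were named after their values were seen.

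Replicate numbers in the titles were checked by the correlation of deviations from the group means. They pair day 3 with day 2 (0.35 to 0.48) and day 4 with day 3 (0.42 to 0.75). They do not pair day 2 with day 0 (-0.20 to 0.21) or the RA arrays with day 2 (-0.45 and -0.22), and day 7 shares fewer than 2 numbers with day 4 and with day 0. Alternatives covered the arrays fitted, the moderation, dim probe sets, low values, normalization, probe set choice, the threshold, the replicate block and each array left out. The number of arrays limits the precision.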

Additional observations from a re-analysis of the deposited data

Results flagged for a closer look

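One value among the 7 genes stood apart from its group by Dixon's test, which was run only on the 4 day 2 arrays. The Slc1a3 probe set 1452031_at read 9.36 in day 2 replicate 4, against 9.74 to 9.81 in the others, a gap of 0.853 of the group's range where 0.829 is the critical value. Probe sets under background on all day 2 arrays were not tested in this way, and chance alone gives such a gap in some groups.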

How the results depend on the processing

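Counts of called genes depended most on which arrays were fitted. With only the arrays of the 2 groups compared, the count was 0 in place of 1 at day 2 against day 0, 1 in place of 4 at day 7 against day 4, and 2 in place of 5 at day 7 against day 0. With probe sets whose names end in s, x or a left out, no probe set of Sox10 or Mbp remained to be called. The count was then 2 at day 7 against day 4 and 3 at day 7 against day 0. At day 2 against day 0 it was 2 with dim probe sets left out, with median centring and at an adjusted p under 0.05, where Mbp joined Fabp7. At day 3 against day 2 it was 2 with dim probe sets left out and at an adjusted p under 0.05, where Foxd3 joined Erbb3. Leaving out 1 array at a time gave 1 to 2 at day 2 against day 0, with 2 without day 0 replicate 3, and 0 to 1 at day 3 against day 2. With the replicate number as a block in the arrays of the 2 groups alone, the count was 0 at day 3 against day 2 and 0 at day 2 against day 0. The replicate block in all 18 arrays changed no count in the 4 comparisons up to day 4, and it was not run for day 7. Of the members' log2 fold changes of at least 1 or with an unadjusted p under 0.05, 357 of the alternative values kept direction and call, 8 gained a call, 13 lost one and 1 changed sign. The last was Mbp at day 2 against day 0, which was -0.33 with the probe set brightest at day 7, a choice made after seeing the data. Except where fewer arrays or probe sets were fitted, the cause was not tested. Signals under background limit what can be said of S100b and of Sox10 before day 7.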

Other observations

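Several genes outside the 7, some of them glial and some not, followed the same order of day 7 arrays as Sox10. Prl2b1, a prolactin-family gene of the placenta, read 2.27, 6.20 and 8.79 in day 7 replicates 3, 4 and 5, and Tpbpa, a trophoblast gene, read 2.24, 6.68 and 7.34. Neurog2, a proneural factor of motor neuron progenitors, read 3.46, 4.30 and 9.41 at day 7, against 11.17, 11.47 and 11.44 at day 4. Bcas1, a gene of newly forming oligodendrocytes, read 5.62, 8.35 and 11.95, and Bcan, which encodes the proteoglycan brevican, 2.62, 2.78 and 9.11. These genes were picked after their values were seen, from those with the largest excess of replicate 5 over replicate 3. They were at ranks 1 (Prl2b1), 2 (Bcan), 3 (Bcas1), 5 (Neurog2) and 9 (Tpbpa). Scrg1, Tmem88b and Omg, at ranks 6, 7 and 8, had a larger excess than Tpbpa.

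Among the day 0 arrays, replicate 3 differed from replicates 1 and 2 in Foxd3 (7.14 against 4.44 and 4.20), Mbp on 1425264_s_at (6.32 against 5.02 and 4.74) and Slc1a3 (7.39 against 9.38 and 9.26), while Erbb3 was alike on all 3 (9.20, 9.47 and 9.36). Without day 0 replicate 3, Mbp was called at day 2 against day 0 (log2 fold change 1.99, limma adjusted p = 3.1e-04), against 1.51 and 0.015 with it. The mean of 8 fibroblast genes was 4.25, 5.54 and 5.61 in day 0 replicates 1, 2 and 3, and its part in these values was not tested.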
